A study of Mus musculus with 6 samples.

Results

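Collagen chains are the subject of this account: all genes whose symbol reads Col, a number, a and a number, each read by its brightest probe set that names only that gene. There were 44 such chains among 22180 measured genes, 11 fibrillar, 6 of basement membrane type IV and 27 of other types. They were measured in 6 subcutaneous tumours grown from B16-F1, a pigmented mouse melanoma line, with 3 tumours from WT hosts and 3 from Stat2 KO hosts, all of C57BL6 background and all taken at day 20. Stat2 encodes a transcription factor that acts downstream of the type I interferon receptor. The labels name the host genotype as the difference between the groups, and do not say that the implanted cells lack Stat2, so each tumour combined melanoma cells with host stroma of one or the other genotype. The knockout allele, the age and the sex of the mice are not stated in the labels, nor is it said whether each tumour came from its own mouse. The p-values therefore measure the spread between these tumours.

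Collagens are secreted or membrane proteins built of alpha chains wound into a triple helix, in which glycine recurs regularly along the helical part. Fibrillar chains (types I, II, III, V, XI, XXIV and XXVII) form the banded fibrils that give connective tissue its tensile strength, and fibroblasts are their main source in skin and in tumour stroma. Type IV chains form the sheet-like network of basement membranes under epithelia and around vessels. The remaining chains bind to fibrils, form beaded filaments or short networks, anchor epidermis to dermis, or span the cell membrane.

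Values are log2 expression from RMA (robust multi-array average), and a difference is the Stat2 KO host mean minus the WT host mean on that scale. The level of a probe set depends on its probes as well as on its RNA, so levels of different chains are not compared as amounts. As a guide to signal over background, olfactory receptor genes were used, which tumours are not known to express: the median of 1105 such genes was 5.21 and their 95th percentile 6.72. Levels of all 44 chains lay above that median, and 11 lay above the 95th percentile. These 11, called the brighter chains here, were Col1a1, Col1a2, Col3a1, Col2a1, Col27a1, Col4a1, Col4a2, Col6a1, Col6a2, Col6a3 and Col9a2. Col4a2, at 6.85, was the dimmest of them and Col5a3, at 6.69, the first below the line. The means of the other 33 chains ranged up to 6.69 from 5.44, within the span of the olfactory receptor genes, so their signal was not shown to exceed background.

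No chain passed the test: 0 of 44 had a limma adjusted p under 0.05, against 2 of 22180 genes (0.00902%). At an unadjusted p under 0.05 there was 1 chain, Col3a1, which was lower, where 3.48% of all genes were lower and 5.34% higher by this rule. The adjusted p-values of the 44 chains ran from 0.517 to 0.980. Groups did not overlap for 7 chains. Of these, 1 lay lower in Stat2 KO hosts, Col3a1 (5.11% of all genes), and 6 lay higher, Col5a2, Col5a3, Col4a6, Col22a1, Col10a1 and Col26a1 (8.23% of all genes). The arrays had medians over all genes of 6.27 to 6.34 in WT hosts and 6.31 to 6.44 in Stat2 KO hosts, and pairs of arrays correlated at 0.964 to 0.986. Stat2 itself was 0.31 lower in Stat2 KO hosts (log2, SE 0.126, limma adjusted p = 0.532). It read 6.33 to 6.48 in Stat2 KO hosts and 6.70 to 6.79 in WT hosts, with no overlap. Its mean of 6.58 lay within the span of the olfactory receptor genes, so its signal was not shown to exceed background. All 7 melanoma cell markers were above the olfactory benchmark, with mean levels from 9.27 to 13.2.

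The upstream sequences of Col1a2, Col3a1 and Col5a3 are shown because Col1a2 and Col3a1 were among the fibrillar chains with the most negative differences, whereas Col5a3 was a fibrillar chain with the Stat2 KO tumours above the WT tumours. Each is the 250 bases before the annotated start, read 5′ to 3′ on the strand of the gene, from RefSeq's GRCm38.p6 table. The build behind the array's annotation is not given in the sources used. Capitals mark, on either strand, the letters CCAAT of the CCAAT box, the letters TATAAA of the TATA box and the letters GGGCGG of the GC box. The matches in these stretches do not overlap each other.
Col1a2, chr6:4505368-4505617, + strand: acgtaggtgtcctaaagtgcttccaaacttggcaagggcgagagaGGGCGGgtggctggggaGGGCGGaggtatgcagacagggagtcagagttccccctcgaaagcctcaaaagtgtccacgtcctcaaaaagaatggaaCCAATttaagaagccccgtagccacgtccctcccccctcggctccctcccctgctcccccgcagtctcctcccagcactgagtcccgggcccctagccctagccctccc
Col3a1, chr1:45311288-45311537, + strand: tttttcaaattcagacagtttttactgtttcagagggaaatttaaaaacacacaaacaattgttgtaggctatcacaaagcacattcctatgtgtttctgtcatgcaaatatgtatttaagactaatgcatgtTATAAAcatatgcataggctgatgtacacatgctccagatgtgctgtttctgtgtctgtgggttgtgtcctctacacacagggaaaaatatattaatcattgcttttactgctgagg
Col5a3, chr9:20815068-20815317, - strand: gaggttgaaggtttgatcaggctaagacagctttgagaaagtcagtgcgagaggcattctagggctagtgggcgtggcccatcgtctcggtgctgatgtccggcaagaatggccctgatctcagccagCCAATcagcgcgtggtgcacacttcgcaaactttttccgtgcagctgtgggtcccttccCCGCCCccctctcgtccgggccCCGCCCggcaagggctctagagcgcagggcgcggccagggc

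The Col1a2 stretch holds GGGCGG at 205 and 188 bases before the start and CCAAT at 109 bases before it. The Col3a1 stretch holds TATAAA at 117 bases before the start and neither of the other motifs. In Col5a3, CCAAT lies 122 bases before the start and GGGCGG, on the opposite strand, 63 and 41 bases before it. The table matched 35 of the 44 chains with 38 windows, each running from 250 bases before the start to 50 after it. The core of the interferon-stimulated response element was searched on both strands as GAAA, any 2 bases and GAAA again. It was found in 0 of the 38 windows and in 3.44% of the 32851 windows searched, which did not cover every chromosome. TTCNNNGAA, the palindromic site of STAT dimers, was found in 2 windows, those of Col28a1 and Col6a5, or 5.26% against 8.30% of the windows searched. GGGCGG was in 60.5% of the collagen windows against 35.7%, CCAAT in 34.2% against 37.4%, and TATAAA in 13.2% against 13.6%. A match gives letters only, and says nothing of binding.

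The fibrillar chains of types I and III were lower on average in tumours of Stat2 KO hosts, without passing the test. Col3a1, which encodes the chain of the type III homotrimer found beside type I in skin and vessel walls, read 7.40, 6.99 and 7.36 in Stat2 KO replicates 1 to 3 and 7.47, 7.71 and 7.82 in WT replicates 1 to 3. Every Stat2 KO tumour lay below every WT tumour, but Stat2 KO replicate 1 and WT replicate 1 were only a little apart. The group means were 7.25 ± 0.23 and 7.66 ± 0.18 (SD, n = 3 each), a difference of -0.41 (SE 0.156, 95% confidence interval -0.75 to -0.07), or 24.8% lower. The unadjusted limma p was 0.0216 and the adjusted p 0.517. Without Stat2 KO replicate 2 the difference was -0.28 (limma adjusted p = 0.799). The unadjusted p of Col3a1 was not under 0.05 without that tumour, without WT replicate 2 or without WT replicate 3.

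Col1a1, the chain present in 2 copies in the type I heterotrimer, read 8.17, 7.17 and 7.81 in the Stat2 KO group and 7.86, 8.36 and 8.37 in the WT group. Stat2 KO replicate 2 was the lowest of all tumours by a wide margin, while Stat2 KO replicate 1 exceeded WT replicate 1, so the groups overlapped. The means were 7.72 ± 0.50 and 8.20 ± 0.29 (SD, n = 3 each), a difference of -0.48 (SE 0.229, interval -0.98 to 0.02, limma adjusted p = 0.574). Without Stat2 KO replicate 2 the difference was -0.21. Col1a2, its partner in type I collagen, read 7.72, 7.29 and 7.52 in the Stat2 KO group and 7.65, 7.90 and 7.90 in the WT group. It was again lowest in Stat2 KO replicate 2, with overlapping groups. Its difference was -0.31 (SE 0.150, interval -0.63 to 0.02, limma adjusted p = 0.585) and -0.20 without that replicate. A second, dimmer probe set for Col1a2, with a mean of 5.67, differed by -0.37. The order of tumours was shared in part by these 3 chains: each was lowest in Stat2 KO replicate 2 and highest in WT replicate 3. Among all genes above the olfactory 95th percentile, 44.4% were lowest in Stat2 KO replicate 2 and 7.5% highest in WT replicate 3.

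**Figure D1:**
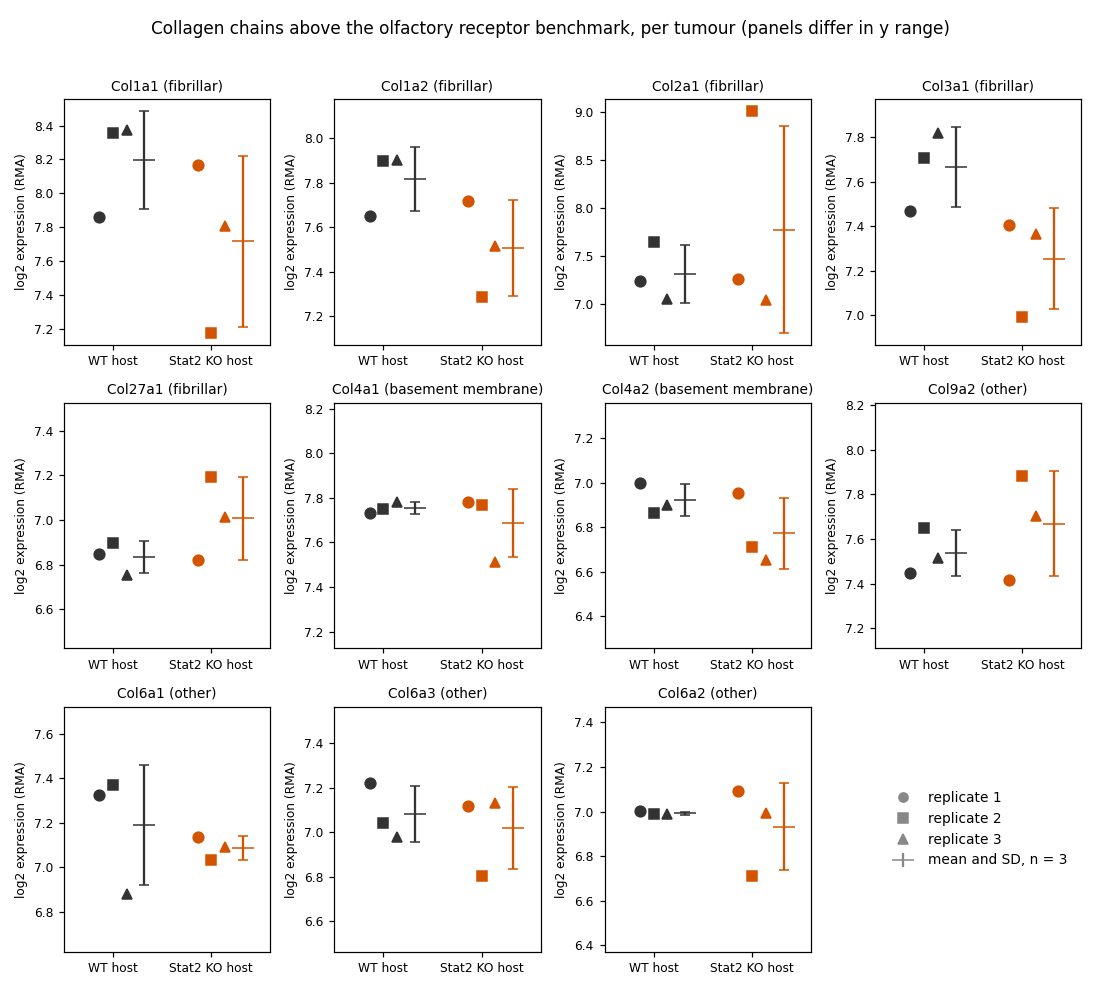
Log2 expression (RMA) of the 11 brighter collagen chains in each tumour, with WT hosts in grey and Stat2 KO hosts in orange, a marker shape per replicate, and the mean with its SD (n = 3) beside the points. Col3a1 is the panel in which no Stat2 KO tumour reaches the WT tumours, and the Col2a1 panel shows Stat2 KO replicate 2 at 9.02 far above the other 5 tumours.

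Col2a1, the chain of type II collagen of cartilage, stood apart in a single tumour. It read 7.27, 9.02 and 7.05 in the Stat2 KO group and 7.25, 7.65 and 7.05 in the WT group, so Stat2 KO replicate 2 was 1.37 above the next tumour and the other 5 lay between 7.05 and 7.65. The difference over all tumours was 0.46 (SE 0.392, interval -0.39 to 1.31, limma adjusted p = 0.729), and it turned to -0.16 without that replicate. Among 6 chondrocyte markers, 1, the transcription factor gene Sox9, lay above the olfactory 95th percentile. Sox9 read 7.74, 7.03 and 7.41 in Stat2 KO replicates 1 to 3 and 6.85 to 7.08 in WT hosts, so it was lowest of its group where Col2a1 was highest. Acan, which encodes the cartilage proteoglycan aggrecan, read 5.75 in the tumour with high Col2a1, between 5.48 and 5.83 in the others. Of the 6 markers, 2 were highest of all tumours in Stat2 KO replicate 2, both dim: Matn1, which encodes the cartilage protein matrilin, at 5.62 beside 4.87 to 5.51 elsewhere, and Cnmd, which encodes chondromodulin, at 5.86 beside at most 5.67. Cnmd was named after its values were seen. The markers' mean level was 5.98, 6.0 and 6.01 in Stat2 KO replicates 1 to 3 and 5.77 to 5.94 in WT hosts, so it did not single out replicate 2. Their part in the Col2a1 value was not tested. Col9a2, a type IX chain that decorates type II fibrils, was also among the brighter chains. It read 7.42, 7.88 and 7.70 in the Stat2 KO group and 7.45, 7.65 and 7.52 in the WT group, with its highest value in the same tumour and overlapping groups (difference 0.13, limma adjusted p = 0.80, and 0.02 without Stat2 KO replicate 2).

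Type V chains, which join type I fibrils and limit their diameter, gave differences of both signs. Col5a3 read 6.83, 6.83 and 6.70 in the Stat2 KO group and 6.54, 6.65 and 6.59 in the WT group, with no overlap (difference 0.19, SE 0.126, limma adjusted p = 0.657). Col5a2 read 6.21, 6.23 and 6.28 against 5.91, 6.12 and 6.13, also with no overlap (0.19, SE 0.131, adjusted p = 0.678). Both lay within the span of the olfactory receptor genes. Col5a1 read 6.58, 6.75 and 6.57 against 6.68, 6.74 and 6.78, with overlapping groups and a difference of -0.10, whereas its second probe set of similar brightness differed by 0.06. Col27a1, which encodes a fibrillar chain of cartilage and other tissues, read 6.82, 7.19 and 7.02 in the Stat2 KO group and 6.85, 6.90 and 6.75 in the WT group. Its groups overlapped and its difference was 0.18 (SE 0.139, limma adjusted p = 0.713), or 0.08 without Stat2 KO replicate 2. The remaining fibrillar chains, Col11a1, Col11a2 and Col24a1, had means from 5.91 to 6.24 and differences of 0.08 to 0.21. Of the 11 fibrillar chains 4 were lower and 7 higher, with a median difference of 0.11 that became 0.01 without Stat2 KO replicate 2.

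In basement membrane collagen the ubiquitous pair Col4a1 and Col4a2 differed little between the hosts. Col4a1 read 7.78, 7.77 and 7.51 in the Stat2 KO group and 7.73, 7.75 and 7.78 in the WT group, with only Stat2 KO replicate 3 away from the rest. The means were 7.69 ± 0.15 and 7.75 ± 0.03 (SD, n = 3 each), a difference of -0.07 (SE 0.133, interval -0.36 to 0.22, limma adjusted p = 0.887). This sign is not stable: it was 0.05 after a further quantile normalization 0.04 after cyclic loess and 0.02 without Stat2 KO replicate 3. Col4a2 read 6.95, 6.71 and 6.65 in the Stat2 KO group and 7.0, 6.86 and 6.90 in the WT group, overlapping, with a difference of -0.15 (SE 0.135, interval -0.44 to 0.15, limma adjusted p = 0.747). The 2 genes lie head to head, and in the RefSeq table their first transcribed bases overlap by 22 bases, shown here on the + strand because this start region is common to both.
Col4a1 and Col4a2, chr8:11312805-11312826, + strand: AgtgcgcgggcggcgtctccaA
The first capital is the first base of Col4a2 and the last capital that of Col4a1, which is read from the other strand.

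The other type IV chains, which make the networks of kidney, lung and some epithelial basement membranes, were dim. Col4a6 read 5.93, 6.21 and 5.94 in the Stat2 KO group and 5.78, 5.85 and 5.80 in the WT group, with no overlap (difference 0.21, SE 0.135, limma adjusted p = 0.651). Col4a3, Col4a4 and Col4a5 had means of 5.99, 6.15 and 6.32 and differences of 0.15, 0.19 and 0.16. The 6 type IV chains thus divided by signal, with the 2 above the olfactory benchmark lower and the 4 below it higher, and the median difference was 0.15. That median was 0.07 without Stat2 KO replicate 2 and also after a further quantile normalization.

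**Figure D2:**
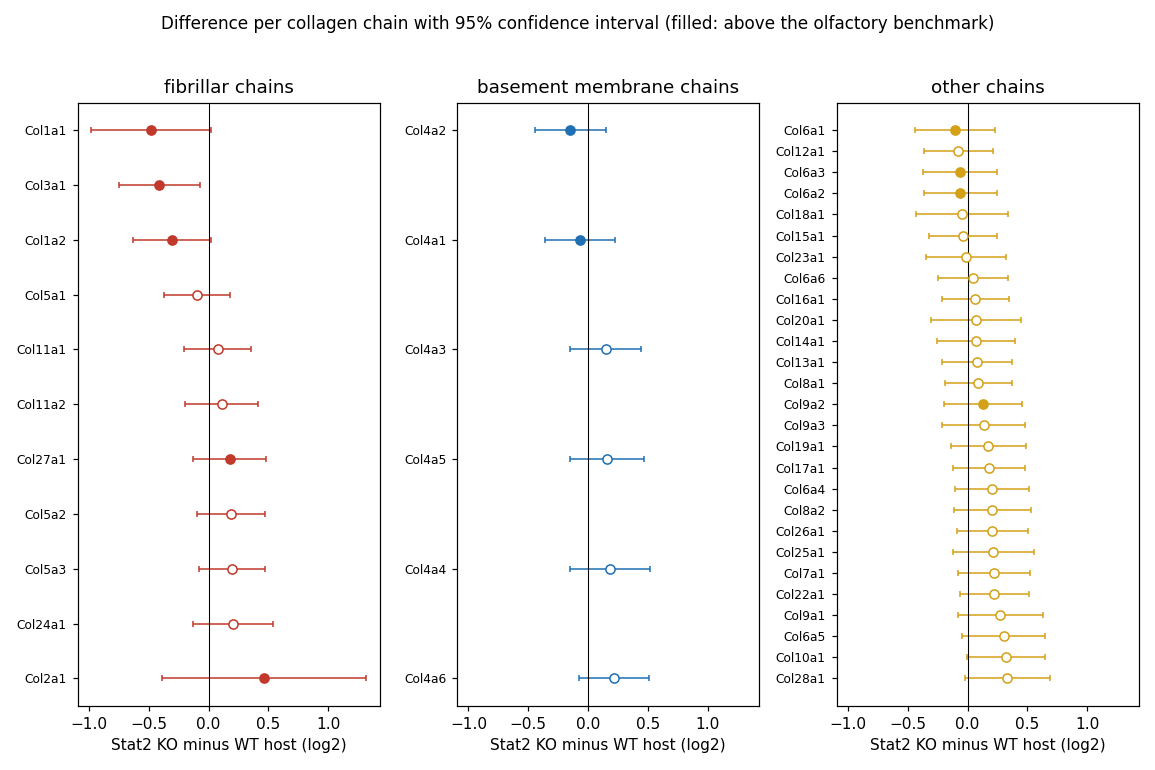
Difference of each of the 44 collagen chains between Stat2 KO and WT hosts (log2, x axis), with 95% confidence intervals from the limma fit, by class; filled points are the 11 chains above the olfactory 95th percentile of 6.72. The interval excludes 0 for Col3a1 only, and that of Col2a1, from -0.39 to 1.31, is the widest.

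Among the chains of other types, the 3 main chains of type VI collagen, which forms beaded microfibrils next to cells, were close in the 2 hosts. Col6a1 read 7.14, 7.03 and 7.09 in the Stat2 KO group and 7.32, 7.37 and 6.88 in the WT group, so the Stat2 KO tumours fell inside the WT range (difference -0.11, SE 0.153, interval -0.44 to 0.23, limma adjusted p = 0.838). A second probe set for Col6a1, with a mean of 5.09 that lies below the olfactory median, differed by 0.19. Col6a2 and Col6a3 each differed by -0.06, with overlapping groups, and both were lowest in Stat2 KO replicate 2. Without that tumour both differences turned, to 0.05 and 0.04. Col6a4, Col6a5 and Col6a6 were dim, with differences of 0.20, 0.30 and 0.04.

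Col10a1, the short-chain collagen of hypertrophic cartilage, read 6.14, 6.43 and 5.97 in the Stat2 KO group and 5.92, 5.75 and 5.91 in the WT group, a narrow separation between the groups. Its difference of 0.32 (SE 0.150, interval -0.00 to 0.65, limma adjusted p = 0.568) was on a probe set within the olfactory span. Col22a1, a fibril-associated chain of tissue junctions such as that of muscle and tendon, read 6.11, 6.23 and 6.09 against 5.87, 5.83 and 6.05 (0.22, SE 0.132, adjusted p = 0.631). Col26a1 read 6.50, 6.82 and 6.55 against 6.36, 6.47 and 6.42 (0.21, SE 0.137, adjusted p = 0.660). In each of these the Stat2 KO tumours were above the WT tumours by a small step, at levels where signal was not shown to exceed background. Without Stat2 KO replicate 2 the differences of Col10a1, Col22a1 and Col26a1 were 0.20, 0.18 and 0.11.

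Col7a1, the chain of the anchoring fibrils of skin, read 6.20, 6.54 and 6.38 in the Stat2 KO group and 6.06, 6.25 and 6.14 in the WT group, overlapping, with a difference of 0.22. Col18a1, the vessel and basement membrane chain from which endostatin is cut, read 6.69, 6.85 and 6.31 against 6.61, 6.96 and 6.42, a difference of -0.05 that turned to 0.11 with Stat2 KO replicate 3 left out and to 0.10 with WT replicate 2 left out. Col8a1, a chain made by vessel cells, read 6.59, 6.68 and 6.75 against 6.47, 6.61 and 6.67 (0.09). The membrane-spanning chain Col13a1 read 6.62, 6.87 and 6.65 against 6.57, 6.61 and 6.73 (0.08). The 27 chains of other types together comprised 7 lower and 20 higher, with differences from -0.11 to 0.33 and a median of 0.13. The largest difference was that of Col28a1, 0.33 (SE 0.165, limma adjusted p = 0.588), with a mean of 5.96 and overlapping groups, and it was 0.17 without Stat2 KO replicate 2.

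Over all 44 chains 13 were lower and 31 higher in Stat2 KO hosts, where 46.0% of all genes were lower and 54.0% higher, with a median difference of 0.13 beside 0.02 for all genes. Of the 11 brighter chains 8 were lower and 3 higher, a share of 72.7% lower where 71.6% of the 8827 genes above the olfactory 95th percentile were lower, so the share was near the background. Of the 33 dimmer chains 5 were lower and 28 higher, a share of 84.8% higher where 71.0% of the 13353 genes at or below it were higher. The median differences were -0.07 for the brighter chains beside -0.09 for the brighter genes, and 0.17 for the dimmer chains beside 0.10 for the dimmer genes. Without Stat2 KO replicate 2 the dimmer chains' median was 0.09 beside 0.06 for dimmer genes. Among dimmer chains 6 of 33 had Stat2 KO tumours above all WT tumours, where 12.1% of dimmer genes did, and among brighter chains 1 of 11 had them below, where 8.90% of brighter genes did. The shares of all genes moved with the scaling of the arrays. After a further quantile normalization 51.8% of brighter genes were lower and 52.2% of dimmer genes higher, whereas 7 of 11 brighter chains were lower and 26 of 33 dimmer chains, 78.8%, were higher. The median difference of the dimmer chains was then 0.09 beside 0.01 for dimmer genes, and no chain had an unadjusted p under 0.05. After cyclic loess 25 of 33 dimmer chains were higher, beside 51.3% of dimmer genes. Median centring of the arrays lowers the median of all genes to -0.05, with 58.7% of them lower, and that of the 44 chains to 0.07, with 15 lower and 29 higher.

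**Figure D3:**
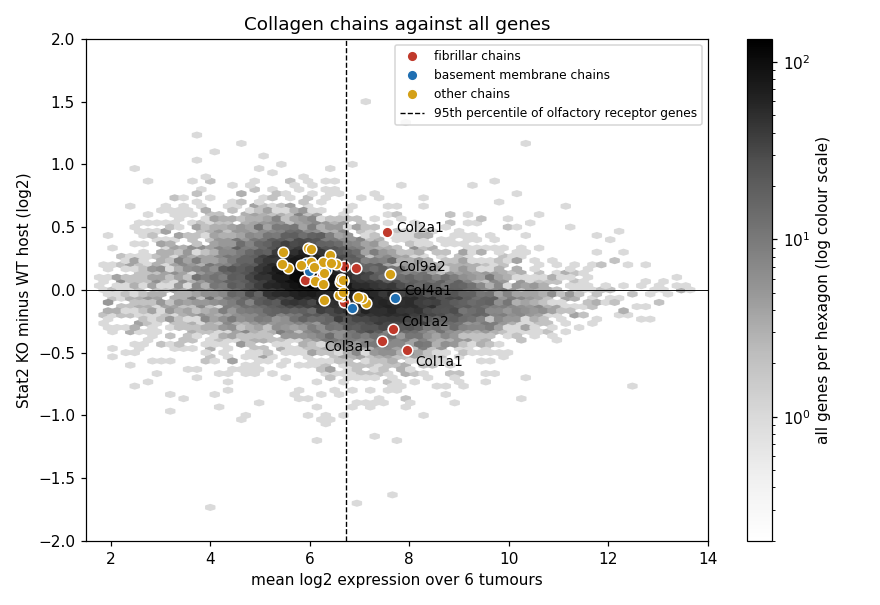
Difference between hosts (log2, y axis) against mean log2 expression over the 6 tumours (x axis) for the 44 collagen chains, coloured by class, over the density of all 22180 genes in grey; the dashed line is the olfactory 95th percentile, 6.72. In the deposited values dim genes lie mostly above 0 and bright genes mostly below it, and the chains follow the same tilt, with Col1a1, Col3a1, Col1a2 and Col2a1 toward the edges of the cloud.

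The chains' values also varied from tumour to tumour within a host genotype. Stat2 KO replicate 2 held the highest value for 23 of the 44 chains, 52.3%, where it did for 26.6% of all genes. For the dimmer chains it was the highest in 20 of 33, or 60.6%, against 36.8% of dimmer genes, and WT replicate 1 was the lowest in 12 of 33, or 36.4%, against 32.4%. With Stat2 KO replicate 2 left out, the differences of 26 of the 44 chains shrank by more than 1.5 times or changed sign. This count was not made over all genes, so it is not shown to be particular to the chains. Without that tumour the median of dimmer genes also moved, from 0.099 to 0.058, and that of brighter genes from -0.089 to -0.044. For the brighter chains Stat2 KO replicate 2 was the lowest in 5 of 11, or 45.5%, against 44.4% of brighter genes. The mean deviation of the 33 dimmer chains from their 6-tumour means was -0.06, 0.20 and 0.07 in Stat2 KO replicates 1 to 3 and -0.10, -0.06 and -0.06 in WT replicates 1 to 3. Stat2 KO replicate 1 thus lay with the WT tumours.

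**Figure D4:**
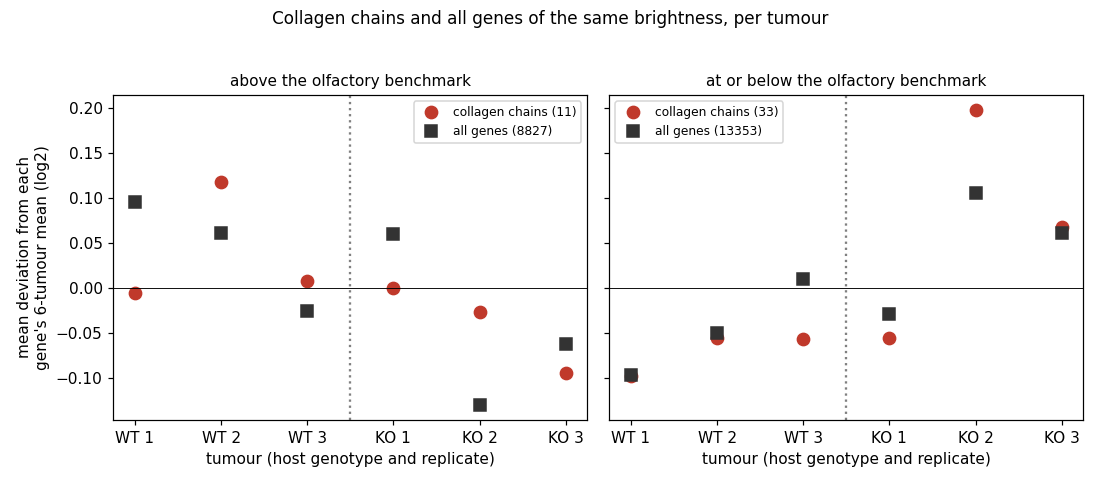
Mean deviation from each gene's 6-tumour mean (log2, y axis) in each tumour (x axis) for collagen chains (red circles) and all genes (grey squares), with the 11 brighter chains and 8827 genes on the left and the 33 dimmer chains and 13353 genes on the right. Stat2 KO replicate 2 is the highest tumour for dimmer chains, at 0.20, and for dimmer genes, at 0.11.

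Partner chains were also set against each other within each tumour, in 12 pairs, as a description. The log2 distance from Col1a2 to Col1a1 was 0.45, -0.12 and 0.29 in the Stat2 KO group and 0.21, 0.46 and 0.47 in the WT group, lowest in Stat2 KO replicate 2 and overlapping. The distance from Col4a2 to Col4a1 was 0.83, 1.06 and 0.86 against 0.73, 0.89 and 0.88, also overlapping. Every Stat2 KO tumour lay below every WT tumour for the distances from Col5a2 to Col3a1 and from Col5a2 to Col5a1. These shifts were -0.599 and -0.285, and Col5a2 lay within the olfactory span. For both the exact permutation p was 0.1, the smallest possible with 3 tumours a side, and 0.6 after Benjamini-Hochberg over the 12 pairs. The other pairs overlapped.

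Genes that fold, export and cross-link procollagen were also counted. Of 36 listed, 32 were measured, 18 lower and 14 higher with a median difference of -0.02, and 0 passed over all genes. The share lower was 56.2%, beside 46.0% of all genes. Of the 19 members above the olfactory benchmark 13 were lower and 6 higher, where 71.6% of genes above it were lower. At an unadjusted p under 0.05 there were 3, all lower, where 3.48% of all genes were. All 3 were among the 19 members above the olfactory benchmark, and 6.16% of genes above it were lower by this rule. Fkbp14, a prolyl isomerase of the endoplasmic reticulum that acts on collagen, read 7.60, 7.48 and 7.34 in the Stat2 KO group and 8.06, 7.75 and 7.93 in the WT group, with no overlap (difference -0.45, SE 0.140, limma adjusted p = 0.486). Sec23a, a subunit of the vesicle coat that carries procollagen out of the endoplasmic reticulum, read 8.57, 8.40 and 8.46 against 8.89, 8.92 and 8.65, also with no overlap (-0.34, adjusted p = 0.525). Ctage5, which acts at the same exit sites, differed by -0.66 with overlapping groups (adjusted p = 0.490), and by -0.45 without WT replicate 1. Ppib, the cyclophilin of the prolyl 3-hydroxylation complex, differed by 0.26 and P4hb, the disulfide isomerase subunit of prolyl 4-hydroxylase, by -0.15, with adjusted p-values of 0.607 and 0.741.

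Of 10 collagen receptor genes 9 were measured, 3 lower and 6 higher, where 46.0% of all genes were lower, and 0 passed. Itga11, the integrin alpha chain by which fibroblasts bind fibrillar collagen, differed by 0.37 on a probe set within the olfactory span (limma adjusted p = 0.565, and 0.19 without Stat2 KO replicate 2). Lair1, an inhibitory collagen receptor of leukocytes, differed by -0.23, also on a probe set within that span (adjusted p = 0.645, and -0.13 without Stat2 KO replicate 1). Basement membrane partners of type IV collagen were measured for 15 of 16 genes, 6 lower and 9 higher with a median of 0.07, and 0 passed. The laminin chain gene Lamb1 read 7.98, 7.41 and 7.72 in the Stat2 KO group and 7.25, 7.27 and 7.50 in the WT group, overlapping only through WT replicate 3 and Stat2 KO replicate 2 (difference 0.36, SE 0.161, limma adjusted p = 0.558). Without Stat2 KO replicate 1 it was 0.23. Lama1, Lamb3 and Lama3 differed by 0.40, 0.24 and 0.21 on dim probe sets with no overlap (adjusted p = 0.490, 0.611 and 0.664). Among genes at or below the olfactory benchmark, 12.1% lay higher without overlap. Of the 9 partners above the olfactory benchmark 5 were lower and 4 higher, where 71.6% of genes above it were lower. The brightest, the laminin chain gene Lama4, averaged 8.65 in the Stat2 KO group and 8.64 in the WT group, a difference below its SE of 0.166 whose sign turned after median centring.

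Markers of cells that make collagen were read beside the chains. For their counts, 71.6% of genes above the olfactory benchmark were lower and 29.0% of genes at or below it. In whole tumours, fewer cells of a type and less RNA per cell cannot be told apart. Fibroblast markers other than collagens were lower in 9 of 11 measured members, with a median difference of -0.13, and 1 of the 11, Postn, lay above the olfactory benchmark. The mean level of the list was 6.04 to 6.20 in Stat2 KO hosts and 6.17 to 6.50 in WT hosts. The proteoglycan gene Dcn, which encodes the fibril-binding decorin, read 5.90, 5.03 and 5.92 in the Stat2 KO group and 6.62, 6.48 and 6.57 in the WT group, with no overlap and its lowest value in the same tumour as Col1a1, Col1a2 and Col3a1 (difference -0.94, SE 0.210, limma adjusted p = 0.351, and -0.65 without that tumour). Postn, which encodes periostin, read 7.50, 6.55 and 7.88 against 8.07, 7.68 and 7.35, again lowest in Stat2 KO replicate 2 and with overlapping groups (-0.39, adjusted p = 0.691). Without that tumour the difference of Postn was -0.01. Stat2 KO replicate 2 was lowest for 44.4% of genes above the olfactory benchmark, where Postn lay, and for 8.35% of those at or below it, where Dcn lay. Lum, which encodes the fibril-binding lumican, differed by -1.21 with overlapping groups (adjusted p = 0.462), but its WT values were 7.64, 6.87 and 5.60; without WT replicate 3 the difference was -1.76 (limma adjusted p = 0.0118) and without WT replicate 1 it was -0.74 (adjusted p = 0.877).

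Endothelial markers were lower in 5 of 10 members, with mean levels of 6.81 to 7.09 in Stat2 KO hosts and 6.97 to 7.06 in WT hosts, and 5 of them lay above the olfactory benchmark. The endothelial cadherin gene Cdh5 read 8.35, 7.50 and 8.18 against 8.40, 8.45 and 8.53, lowest in Stat2 KO replicate 2 (difference -0.45, SE 0.196, limma adjusted p = 0.552), and its difference was -0.19 without that tumour. That tumour was lowest for 44.4% of genes above the benchmark. Pericyte markers were lower in 2 of 6, macrophage markers in 7 of 7, Schwann cell markers in 2 of 3 and adipocyte markers in 3 of 5. The macrophage genes C1qb and Cd68 differed by -0.95 and -0.61 (adjusted p = 0.195 and 0.449). Keratinocyte and skeletal muscle markers were lower in 2 of 6 and 1 of 7, and none of them lay above the olfactory benchmark. Melanoma cell markers, all above the benchmark, were lower in 6 of 7, where 71.6% of genes above it were lower. Their mean level was 11.18 in Stat2 KO replicate 2 and 11.42 to 11.64 in the other 5 tumours. The part of any of these cell types in the collagen values was not tested.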

How the data were processed

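The authors deposited 1 log2 value for each probe set and array; the submitters' processing notes name RMA in Affymetrix Expression Console 1.3.1. Probe sets were named through the platform annotation and gene identifiers of RefSeq's table. Of 41345 probe sets, 23521 named 1 gene, 1814 several and 16010 none, and the brightest probe set of each gene gave 22180 genes. The Col6a1 probe set shared with other genes was left out. Differences were fitted with limma 3.58.1 in R 4.3.3 (lmFit, eBayes with an intensity trend, two-sided) on all 6 arrays and all genes, without a filter on dim probe sets. Adjustment was by Benjamini-Hochberg over 22180 genes at 0.05. The number of arrays limits the precision. The procedure was tested on simulated data. The members, lists and benchmarks were chosen with earlier results of these data known. Values in every tumour were given for Col4 and fibrillar chains brighter than the median gene (6.33), the brightest chain of each other type, and chains with an unadjusted p under 0.05 or groups that do not overlap; other lists name up to 4 members with the smallest p and the brightest.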

Additional observations from a re-analysis of the deposited data

How the results depend on the processing

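No chain passed the adjusted threshold under any alternative run: a replicate block, further quantile normalization, median centring, cyclic loess, dim genes left out (means at or below the median gene), averaging a gene's probe sets, eBayes without trend or robust, array weights, and each tumour left out in turn. Genes called numbered 0 after quantile normalization, 1 after cyclic loess or without the trend, 257 with array weights and 0 to 17 with 1 tumour left out. In the main fit 1956 genes had an unadjusted p under 0.05. The array weights were 2.475 for Stat2 KO replicate 3, 2.253 for WT replicate 2 and 0.51 to 0.878 for the others. That run thus leaned on 1 tumour in each group. Chains with an unadjusted p under 0.05 numbered 2 with the replicate block, with averaged probe sets and with robust eBayes, 3 after median centring, 0 after quantile normalization and cyclic loess, 4 with array weights and 0 to 9 with 1 tumour left out, the 9 being without Stat2 KO replicate 1. Same-numbered tumours deviated together with correlations of 0.240, 0.079 and 0.030, so the numbers were not taken to pair tumours. The fibrillar median was 0.029 after cyclic loess, -0.097 with dim genes left out and 0.014 to 0.17 with 1 tumour left out. The type IV median was 0.066 after cyclic loess, 0.062 with array weights and -0.108 with dim genes left out, where 2 chains remain. The median of all chains was -0.014 with dim genes left out, and that of other types 0.089 to 0.233 with 1 tumour left out. Signs turned under at least 1 alternative for 13 chains. Of these, 8 were dimmer chains with differences of at most 0.078 in size, Col11a1, Col14a1, Col15a1, Col16a1, Col18a1, Col20a1, Col23a1 and Col6a6, and 5 were brighter: Col6a2 (0.049 without Stat2 KO replicate 2), Col6a3 (0.044 without Stat2 KO replicate 2, 0.008 without WT replicate 1, 0.012 with array weights), Col4a1 (0.048 after quantile normalization, 0.037 after cyclic loess, up to 0.019 without Stat2 KO replicate 3 and down to -0.115 without Stat2 KO replicate 1), Col6a1 (0.043 with averaged probe sets) and Col2a1 (-0.085 with array weights, -0.160 to 0.827 with 1 tumour left out). Col18a1 ran from -0.169 to 0.107 with 1 tumour left out, above 0 without Stat2 KO replicate 3 or WT replicate 2. Cnmd, at 0.061, turned to -0.059 after quantile normalization, -0.005 after median centring and -0.06 after cyclic loess, with -0.055 to 0.128 with 1 tumour left out; Lama4, at 0.015, turned to -0.051 after median centring, with -0.092 to 0.203 with 1 tumour left out. C1qb and Cd68 passed with array weights (-0.982 and -0.683), and C1qb and Lum without WT replicate 3 (-1.09 and -1.76). The causes were not tested.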

Other observations

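Col2a1 was not alone in standing out in Stat2 KO replicate 2. That tumour exceeded all 5 others by at least 1 log2 unit for 12 genes, against 0 to 6 genes for each other tumour. Only the small nucleolar RNA Snora75, with a gap of 1.53, had a larger gap than Col2a1. The 10 genes with the largest gaps, chosen after their values were seen, also held Dpep2, Serpinb1a, Car12, Ehd3 and 4 more whose values follow; no common function was tested. Hapln1, which encodes a link protein that joins hyaluronan to proteoglycans, read 9.15 in that tumour and 6.56 to 8.05 in the others. Xylt1, which starts glycosaminoglycan chains on proteoglycans, read 9.06 and 7.37 to 8.0. Sulf2, which encodes an extracellular heparan sulfate sulfatase, read 10.45 and 7.93 to 9.34, and Tgfb2, which encodes a secreted growth factor, read 7.74 and 6.23 to 6.58. The same tumour held the lowest Col1a1, Col1a2 and Col3a1 of the series, and the lowest value of 44.4% of genes above the olfactory 95th percentile.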
